A study of Mus musculus with 8 samples.

Results

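The data on 6 genes of the cysteinyl leukotriene system were taken from RNA-seq of sorted cells of the neonatal mouse cochlea: the receptors Cysltr1 and Cysltr2, and Alox5, Alox5ap, Ltc4s and Lta4h, which make the leukotrienes. They are 6 of the 36536 genes in the count tables, and each symbol matched 1 gene in the NCBIM37 annotation. The set was chosen by the level of its best-known member here, since Cysltr2 is among the top genes of P1 GFP+ cells and is lower at P6. All values of Cysltr2 are therefore given as a description with no test. The rule names no value of the other 5 genes, although the set was put together with earlier results of these data known.

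The cells came from Lfng-GFP BAC transgenic mice, listed as strain B6;FVB-Tg(Lfng-EGFP)HM340Gsat/Mmucd, and every group carries the transgene. At postnatal day 1 (P1) and day 6 (P6), cochleas were dissociated and sorted, with neither culture nor treatment, into GFP+ cells, labelled as supporting cells, and GFP- cells, labelled as all the other cochlear cell types. The 4 groups are P1 GFP+, P1 GFP-, P6 GFP+ and P6 GFP-, each with 2 libraries, and going by the methods each library pooled the sorted cells of many cochleas. The transgene is a BAC reporter for Lfng and marks border, inner phalangeal, outer pillar and Deiters' cells but not inner pillar cells. Only the brightest GFP+ cells were kept. At P6 the lateral wall and stria vascularis were only partly removed, whereas at P1 they were separated, so age and dissection cannot be told apart.

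Leukotrienes are lipid mediators made from arachidonic acid, a fatty acid that phospholipases release from membranes. Alox5 (5-lipoxygenase), helped by the membrane protein Alox5ap, turns it into leukotriene A4, which Ltc4s joins to glutathione to give leukotriene C4, the parent of the cysteinyl leukotrienes, or which Lta4h hydrolyses to leukotriene B4. The cysteinyl leukotrienes act on the G protein-coupled receptors Cysltr1 and Cysltr2, which signal largely through Gq, phospholipase C and calcium, and they are best known from mast cells, eosinophils and macrophages in airway inflammation.

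Cysltr2 and Alox5 are the only members whose highest level was in P1 GFP+ cells, so the sequence around their start sites is shown. Each is the RefSeq promoter window, with 250 bases before and 50 bases after the gene's start, taken from the GRCm38.p6 table and found once, base for base, in NCBIM37 (mm9). The Cysltr2 window is chr14:73448872-73449171 on the minus strand and the Alox5 window is chr6:116411147-116411446 on the minus strand, and both are printed 5′ to 3′ along the gene.

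Cysltr2: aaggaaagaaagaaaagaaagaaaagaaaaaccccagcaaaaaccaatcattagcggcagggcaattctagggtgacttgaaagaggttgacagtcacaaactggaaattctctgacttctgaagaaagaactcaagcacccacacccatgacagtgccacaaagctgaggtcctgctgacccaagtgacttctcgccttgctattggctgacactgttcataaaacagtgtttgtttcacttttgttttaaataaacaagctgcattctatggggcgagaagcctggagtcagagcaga
Alox5: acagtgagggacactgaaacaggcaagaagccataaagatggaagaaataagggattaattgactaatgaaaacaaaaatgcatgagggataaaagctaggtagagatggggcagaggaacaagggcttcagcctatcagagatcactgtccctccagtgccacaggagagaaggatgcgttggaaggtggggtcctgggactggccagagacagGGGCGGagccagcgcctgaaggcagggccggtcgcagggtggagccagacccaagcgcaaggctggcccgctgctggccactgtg

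Capitals mark the only match among 4 short motifs searched on both strands: the core TGGGAA, which the Notch effector RBPJ binds, the Sp1-type motif GGGCGG, the motif AGATAA of the zinc finger factors related to Gata3, and the basal promoter motif TATAAA. The Alox5 window held 1 Sp1-type motif, present in 35.66% of the 32851 mouse promoter windows of 300 bases, and the Cysltr2 window held none of the 4. Of all windows, 25.56% held the RBPJ core, 13.62% the basal promoter motif and 11.18% the Gata-type motif. The Alox5 window was 55.67% G and C and the Cysltr2 window 43.67%. The table matched 4 of the 6 members, these being Cysltr2, Alox5, Lta4h and Ltc4s.

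The genes lie on 6 chromosomes of NCBIM37 (mm9). Cysltr2 (ENSMUSG00000033470) spans chr14:73428935-73448921 on the minus strand with 6 merged exons and 1802 exonic bases. Cysltr1 (ENSMUSG00000052821) spans chrX:103769685-103799018 on the minus strand with 4 merged exons and 5142 exonic bases. Alox5 (ENSMUSG00000025701) spans chr6:116360095-116411196 on the minus strand with 12 merged exons, and Alox5ap (ENSMUSG00000060063) spans chr5:150076634-150099621 on the plus strand with 6. Lta4h (ENSMUSG00000015889) spans chr10:92916141-92947641 on the plus strand with 19 merged exons. Ltc4s (ENSMUSG00000020377), at chr11:50049971-50052118 on the minus strand, shares 192 exonic bases with Gm16641, a long noncoding RNA on the other strand. The library kit did not mark strand, so reads in those bases cannot be told apart and the Ltc4s values are uncertain. No stretch of 50 bases of any member's coding transcripts occurred in a coding transcript of another gene.

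The libraries held 17769024 to 67695039 counts on genes, with both extremes at P6. Levels are given as CPM, the count of a gene scaled by the library's total over all genes. Of 8 supporting cell markers, 7 were higher in GFP+ cells at both ages by edgeR's quasi-likelihood test (p and Benjamini-Hochberg adjusted p below 0.01), Lfng among them. Slc1a3 went the other way at P1, called lower in GFP+ cells (157 and 157 CPM against 379 and 312), and was not called at P6. Of 6 hair cell markers, 5 were higher in the GFP+ fraction on day 1 and 4 on day 6. Over all genes, 16.6% were higher and 20.7% lower at P1, and 7.72% higher and 5.19% lower at P6. The 14 macrophage markers summed to 27.6 to 30.3 CPM in P1 GFP+, 267 to 343 in P1 GFP-, 613 to 680 in P6 GFP-, and to 64.9 and 123 in the 2 P6 GFP+ libraries. The second P6 GFP+ library also stood apart in the sum of 8 endothelial markers, at 299 CPM against 84.2 in the first. In these bulk samples, fewer cells of a type and less RNA per cell cannot be told apart. The labels do not say that replicates came from separate litters or sorts, so p-values measure only the spread between these libraries.

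Cysltr2, the receptor that chose the set, was at 91.1 and 109 CPM in the P1 GFP+ libraries, from 4176 and 2722 counts. It was at 0.158 and 0.460 CPM in P1 GFP-, at 3.04 and 2.61 CPM in P6 GFP+, and at 0.0486 and 0.281 CPM in P6 GFP- cells. The order was P1 GFP+, P6 GFP+, P1 GFP- and P6 GFP-, a span of 609-fold between the highest and lowest means, and only the last neighbours in it overlapped. The fitted log2 fold change was 8.29 for GFP+ over GFP- cells at P1 and -5.07 for P6 over P1 in GFP+ cells, both being values the choice rests on. Endothelial cells are a known site of this receptor, and the 8 endothelial markers summed to 31.2 to 36.2 CPM in the P1 GFP+ libraries and to 358 to 437 CPM in P1 GFP-. Their part in the Cysltr2 levels was not tested.

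**Figure D1:**
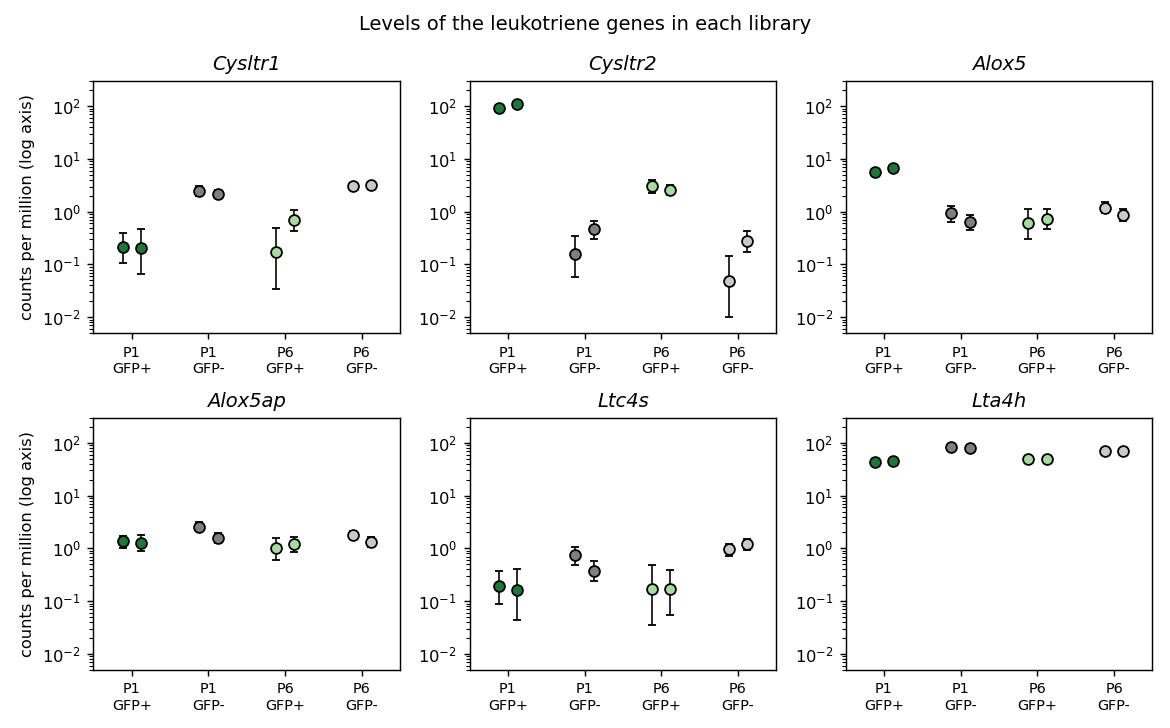
CPM of the 6 genes (log axis) in each library, 2 points for each of the 4 groups, with bars for the 95% Poisson interval of the count. Cysltr2 sits near 100 CPM in P1 GFP+ cells and near 3 in P6 GFP+ cells, Alox5 is high in P1 GFP+ cells alone, and Cysltr1 and Ltc4s are higher in GFP- cells.

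The P6 GFP+ and P1 GFP- libraries also entered the choice, so the remaining contrasts of Cysltr2 are descriptions too. At P6 the fitted difference of GFP+ over GFP- cells was log2 4.05, from 54 and 78 counts against 3 and 19. It was log2 3.37 without the first P6 GFP- library and 5.74 without the second, which held 19 of those counts, and 4.18 without the second P6 GFP+ library, the one with more endothelial and macrophage RNA. In GFP- cells, the fitted P6 over P1 difference of Cysltr2 was log2 -0.76, from 35 counts at P1 and 22 at P6. Without the second P1 GFP- library, which held 29 of the P1 counts, the P6 over P1 difference turned to log2 0.24.

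Cysltr1, the other receptor and the target of the montelukast class of asthma drugs, had the opposite distribution. It was at 0.218 and 0.201 CPM in P1 GFP+ cells and at 2.45 and 2.19 CPM in P1 GFP- cells. At P6 it was at 0.169 and 0.703 CPM in GFP+ and at 3.02 and 3.24 CPM in GFP- cells. GFP- libraries were above GFP+ libraries at both ages with no overlap, and the 2 GFP+ groups overlapped each other.

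At P1, Cysltr1 was 10.0-fold lower in GFP+ cells (log2 -3.33, SE 0.35, adjusted p = 0.000544 by edgeR). At P6 the difference was log2 -2.73 (SE 0.56, adjusted p = 0.0165) and did not pass 0.01. Leaving out the first P6 GFP+ library gave log2 -2.12 (adjusted p = 0.000482), and leaving out the second gave log2 -4.17 (adjusted p = 1.68e-05). Without the first or second P6 GFP- library the size was log2 -2.75 or -2.73, with adjusted p of 0.0668 or 0.0836, and 5 of 10 alternatives in all passed. The ratio of the fractions was not shown to differ between the ages (interaction, the P6 ratio over the P1 ratio, log2 0.59, 95% interval -1.003 to 2.18, adjusted p = 0.685 by edgeR). Cysltr1 in GFP+ cells, with 3 to 21 counts in a library, did not reach the count filter, so it was not tested between the ages.

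The 2 receptors differed in the fraction that held more of them. Per kilobase of merged exon, the mean level at P1 in GFP+ cells was 55.6 CPM for Cysltr2 and 0.0407 for Cysltr1, and in GFP- cells 0.171 for Cysltr2 and 0.451 for Cysltr1. At P6 in GFP+ cells it was 1.57 CPM per kilobase for Cysltr2 and 0.0848 for Cysltr1. Cysltr2 was the higher receptor in every GFP+ library, whereas in the GFP- libraries Cysltr1 was the higher.

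Cysltr1 and the macrophage markers were both higher in the GFP- libraries. Cysltr1 was lowest, at 0.169 CPM, in the first P6 GFP+ library, where the 14 macrophage markers summed to 64.9 CPM. That level came from 3 counts (95% Poisson interval 0.0348 to 0.493 CPM). It cannot be told from the 0.201 and 0.218 CPM, from 5 and 10 counts, in the P1 GFP+ libraries, at sums of 27.6 and 30.3. The Cysltr1 level as a share of the macrophage sum varied from 0.260%, from the same 3 counts, to 0.820% over the 8 libraries. In GFP- libraries the share was 0.716% and 0.820% at P1 and 0.443% and 0.528% at P6. At P1, 13 of the 14 macrophage markers were lower in GFP+ cells, beside 20.7% of all genes. At P6, 13 of 14 were lower, beside 5.19% of all genes, with Cd68 the exception at both ages. The part of macrophage RNA in the Cysltr1 difference was not tested.

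**Figure D2:**
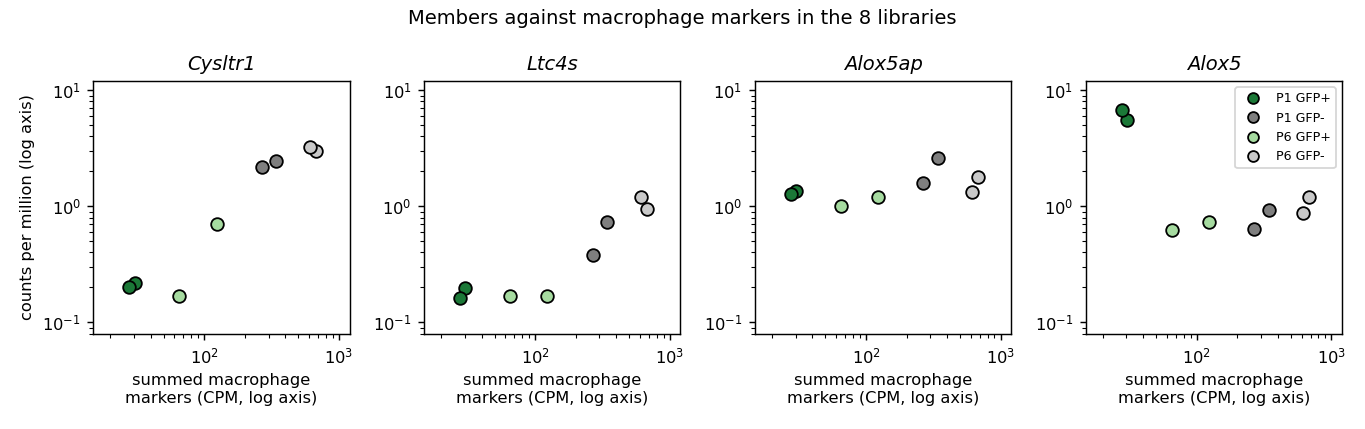
CPM of Cysltr1, Ltc4s, Alox5ap and Alox5 against the summed CPM of 14 macrophage markers in the 8 libraries (both axes log), coloured by group. Cysltr1 and Ltc4s are higher in the 4 GFP- libraries, where the sum is 267 to 680 CPM, than in the 4 GFP+ libraries, Alox5ap changes little, and Alox5 is highest in the 2 P1 GFP+ libraries, where the sum is 27.6 to 30.3 CPM.

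Alox5, the enzyme that starts leukotriene synthesis, was highest in the same sorted fraction and age as Cysltr2. It was at 5.59 and 6.71 CPM in P1 GFP+ cells, from 256 and 167 counts, and at 0.924 and 0.634 CPM in P1 GFP- cells. At P6 it was at 0.619 and 0.737 CPM in GFP+ and at 1.20 and 0.872 CPM in GFP- cells. The P1 GFP+ libraries stood above all 6 others, and the other 3 groups lay close together with neighbours overlapping.

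Alox5 was 8.57-fold higher in GFP+ than in GFP- cells at P1 (log2 3.10, SE 0.29, adjusted p = 0.000346 by edgeR). In GFP+ cells it fell by P6, 8.39-fold lower than at P1 (log2 -3.07, SE 0.30, adjusted p = 0.00529). Without the second P6 GFP+ library it was log2 -3.17. Without the second P1 GFP+ library the size stayed at log2 -2.97, with adjusted p = 0.0376. Cell type markers moved between the ages in GFP+ cells as well: 2 of 6 hair cell markers were lower at P6, Atoh1 (from 7.62 and 9.48 to 0.844 and 1.04 CPM) and Myo7a (from 61.9 and 81.8 to 17.1 and 23.5 CPM), as were 2 of 8 supporting cell markers, Prox1 and Hes5. Of the 14 macrophage markers, 1 was higher at P6 by edgeR, with 13 at an unadjusted p under 0.05, and DESeq2 called 9 higher. Of the 8 endothelial markers, edgeR called 0, with 8 higher at an unadjusted p under 0.05, and DESeq2 called 8 higher. Over all genes, 2.86% were higher and 1.95% lower by edgeR. An unadjusted p under 0.05 was found for 6575 of 17213 genes, and DESeq2 called 3037. The part of these shifts in the Alox5 difference was not tested. At P6 the Alox5 levels of the fractions differed by log2 -0.61 (95% interval -1.61 to 0.40, adjusted p = 0.298), and in GFP- cells the ages differed by log2 0.62 (95% interval -0.30 to 1.54, adjusted p = 0.305).

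The change in the GFP+ to GFP- ratio between the ages, tested as an interaction over the 8 libraries, was log2 -3.72 for Alox5 (SE 0.48, adjusted p = 0.00513 by edgeR). Leaving out 1 library gave log2 from -3.97 to -3.36. The call was lost, with adjusted p from 0.0204 to 0.0349, without either P1 GFP+ library, the second P1 GFP- library or either P6 GFP- library. The fitted value for Cysltr2 in this contrast was -4.29, given as a description because its P1 ratio and its fall chose the set, and it was -2.60 without the second P6 GFP- library and -5.28 without the second P1 GFP- library. The macrophage marker sum was lowest in the P1 GFP+ libraries, where Alox5 was highest. Of the 7 mast cell markers, Fcer1a and Ms4a2 had no counts in any of the 8 libraries. Cma1, Mcpt4 and Tpsb2 had none in either P1 GFP+ library, Cpa3 had 1 count there, and Hdc, the histidine decarboxylase, made up nearly all of the mast cell sum of 15.1 to 15.9 CPM there. The 8 granulocyte markers summed to 0.262 and 0.362 CPM in the same libraries. The 2 P1 GFP- libraries differed in the mast cell sum, at 15.2 CPM in the first and 1.84 in the second. The part of immune cell RNA in the Alox5 levels was not tested.

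**Figure D3:**
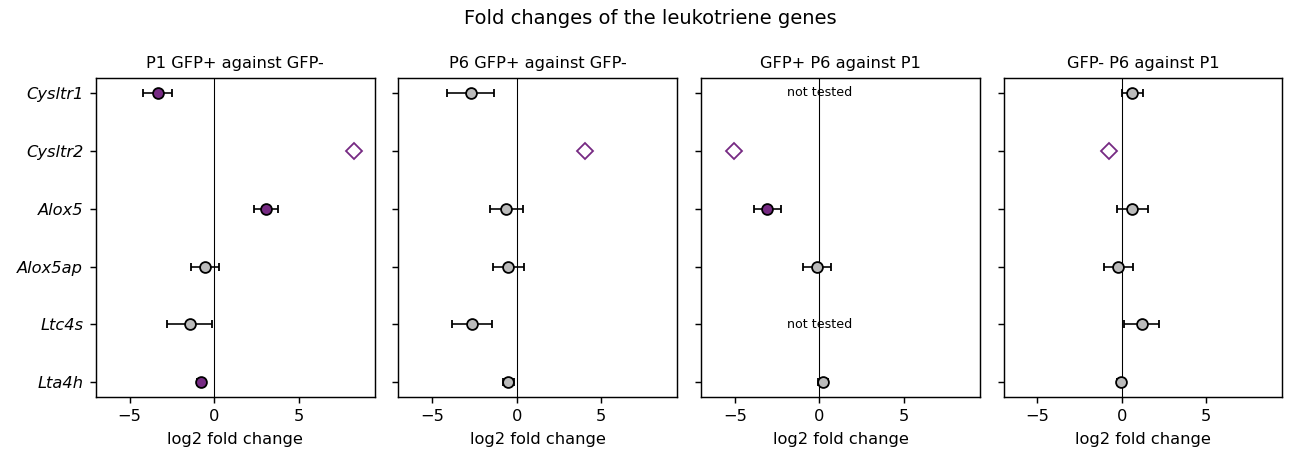
Log2 fold changes with 95% intervals (edgeR) of the 6 genes in the 4 comparisons, purple where p and adjusted p were below 0.01 and grey where not. Open diamonds are the Cysltr2 values, at 8.29, 4.05, -5.07 and -0.76 from left to right, which come from libraries used by the choice and have no interval. Alox5 is higher in GFP+ cells at P1 and lower in GFP+ cells at P6 than at P1.

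Alox5ap, the protein that presents arachidonic acid to Alox5, did not pass the test in any comparison. It was at 1.35 and 1.29 CPM in P1 GFP+, 2.59 and 1.58 in P1 GFP-, 1.01 and 1.21 in P6 GFP+, and 1.80 and 1.33 CPM in P6 GFP- cells. Its highest group mean was 1.88-fold its lowest. In GFP+ cells, where Alox5 fell, Alox5ap differed between the ages by log2 -0.16 (95% interval -0.98 to 0.67, adjusted p = 0.755 by edgeR). The difference between the fractions was log2 -0.54 at P1 (95% interval -1.38 to 0.30) and -0.49 at P6 (95% interval -1.41 to 0.42).

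Ltc4s, the synthase that commits the pathway to cysteinyl leukotrienes, had the lowest counts. It was at 0.196 and 0.161 CPM in P1 GFP+ cells, from 9 and 4 counts, and at 0.739 and 0.380 CPM in P1 GFP- cells. At P6 it was at 0.169 and 0.167 CPM in GFP+ cells, from 3 and 5 counts, and at 0.957 and 1.20 CPM in GFP- cells. Each GFP- library was above each GFP+ library. The difference was log2 -1.45 at P1 (SE 0.55, adjusted p = 0.0687 by edgeR) and log2 -2.67 at P6 (SE 0.48, adjusted p = 0.0114), neither past 0.01. Over 10 alternatives the P6 adjusted p ranged from 0.00112 to 0.0956, with 6 under the threshold, one of them (0.00776) without the second P6 GFP+ library. Its share of the macrophage marker sum was between 0.136% and 0.647%. The 7 mast cell markers summed to 15.2 CPM in the first P1 GFP- library, where Ltc4s was at 0.739 CPM. They summed to 1.84 CPM in the second, where Ltc4s was at 0.380 CPM. In the P6 GFP- libraries, where Ltc4s was at 0.957 and 1.20 CPM, they summed to 1.62 and 1.51 CPM. The part of macrophage and mast cell RNA in the Ltc4s levels was not tested.

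Lta4h, the hydrolase that makes leukotriene B4 and also trims peptides, was expressed well in every library. It was at 43.4 and 46.3 CPM in P1 GFP+, 85.4 and 81.7 in P1 GFP-, 50.1 and 48.9 in P6 GFP+, and 69.1 and 69.4 CPM in P6 GFP- cells. The fitted P6 over P1 difference was log2 0.24 in GFP+ cells (adjusted p = 0.206 by edgeR) and log2 -0.08 in GFP- cells (adjusted p = 0.613), neither past 0.01. Scaled by library totals, as CPM is, the GFP- difference was log2 -0.27. At P1 it was 1.74-fold lower in GFP+ cells (log2 -0.80, SE 0.084, adjusted p = 0.000575 by edgeR), and without either P1 GFP+ library the adjusted p was 0.0101 or 0.0123. At P6 the difference was log2 -0.49 (SE 0.14, adjusted p = 0.0461), and the interaction was log2 0.29 (95% interval -0.06 to 0.65, adjusted p = 0.329).

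Across the 5 members other than Cysltr2, 1 was higher and 2 were lower in GFP+ cells at P1, where 16.6% of all 18682 genes tested were higher and 20.7% lower. Alox5 and Cysltr1 also exceeded a 4-fold change, as did 6.46% of all genes on the higher side and 11.4% on the lower side. At P6, 0 of 5 passed by edgeR, against 7.72% of genes higher and 5.19% lower. Cysltr1, Ltc4s and Lta4h had an unadjusted p under 0.05 there, and DESeq2 called 2 members, Cysltr1 and Ltc4s. Over all 18294 genes tested at P6, 8216 had an unadjusted p under 0.05 by edgeR and DESeq2 called 4891.

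Between the ages, 1 of the 3 members tested in GFP+ cells was lower at P6 by the same edgeR test, Alox5, and 0 were higher (0 also at an unadjusted p under 0.05 and by DESeq2), where 1.95% of 17213 genes were lower and 2.86% higher. Past a 4-fold change too, these shares were 0.930% lower and 1.63% higher, and Alox5 was in the first. In GFP- cells, 0 of the 5 members other than Cysltr2 passed, where 5.04% of genes were higher at P6 and 2.34% lower. Cysltr1 and Ltc4s had an unadjusted p under 0.05 in GFP- cells, both with higher values at P6, and DESeq2 called 0 of the 5. Over all 18920 genes tested there, 6522 had an unadjusted p under 0.05 by edgeR and DESeq2 called 3050. In the interaction, 1 of 5 was lower, Alox5, beside 0.988% of all genes lower and 0.946% higher. These comparisons share libraries, so their counts are not independent.

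The members were unequal in abundance. Per kilobase of merged exon, the P1 GFP+ means were 55.6 CPM for Cysltr2, 21.7 for Lta4h, 1.497 for Alox5, 1.49 for Alox5ap, 0.243 for Ltc4s and 0.0407 for Cysltr1. In P6 GFP+ cells Lta4h was first at 23.97 CPM per kilobase, Cysltr2 was at 1.57, Alox5ap at 1.26, Ltc4s at 0.228, Alox5 at 0.165 and Cysltr1 at 0.0848. In P6 GFP- cells Lta4h was at 33.5, Alox5ap at 1.77, Ltc4s at 1.46, Cysltr1 at 0.608, Alox5 at 0.252 and Cysltr2 at 0.0914 CPM per kilobase. In GFP+ cells Cysltr2 was thus first at P1 and behind Lta4h alone at P6. In GFP- cells it was last at both ages, with 0.171 CPM per kilobase at P1 beside 0.190 for Alox5.

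Among 16 other genes of leukotriene supply, conversion, export and reception, 13 could be tested at P1, of which 4 were higher and 3 lower in GFP+ cells, beside 16.6% higher and 20.7% lower over all genes. The median log2 difference was -0.83, and 0.01 over all genes. Mgst3, a microsomal glutathione transferase related to Ltc4s that can also conjugate leukotriene A4, was at 194 and 203 CPM in P1 GFP+ and 13.2 and 21.4 CPM in P1 GFP- cells. Its P1 difference was log2 3.62 (SE 0.23, adjusted p = 7.71e-05 by edgeR). Both P1 GFP+ libraries were above all others, with 42.2 and 29.5 CPM in P6 GFP+ cells and 9.52 and 8.67 in P6 GFP- cells.

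The export pumps Abcc1 and Abcc4, which carry leukotriene C4 among other substrates, were both higher in P1 GFP+ cells. Abcc1 was at 54.8 and 56.2 CPM against 25.04 and 30.7 (log2 1.10, adjusted p = 0.000638), and Abcc4 was at 9.01 and 9.88 CPM against 2.93 and 3.53 (log2 1.64, adjusted p = 0.000879). Ptgr1, which inactivates leukotriene B4, was higher too (log2 1.16, adjusted p = 0.000504). Of the 5 listed genes of the families that trim leukotriene C4 to D4 and E4, 2 were lower. Ggt5 was lower by log2 -4.79 (adjusted p = 3.64e-05), and Dpep1 had no counts in either P1 GFP+ library against 0.739 and 0.951 CPM in GFP- cells. With a floor of 3 counts over the group, Dpep1 was at least 19.9-fold lower in GFP+ cells. Ggt1 differed by log2 0.54 (adjusted p = 0.0911) and Dpep2 by log2 -0.83 (adjusted p = 0.229), neither past 0.01, and Dpep3 was not tested. Cotl1, which binds Alox5, was also lower (log2 -2.60, adjusted p = 1.32e-05). The leukotriene B4 receptor Ltb4r1, at 0.109 and 0.121 CPM in P1 GFP+ and 0.897 and 0.507 in P1 GFP- cells, did not pass (adjusted p = 0.0119 by edgeR).

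At P6, 2 of 13 tested genes of this list were higher in GFP+ cells, Mgst3 (log2 1.97, adjusted p = 0.00425) and Ptgr1 (log2 1.44, adjusted p = 0.00996), and 3 were lower, Dpep1, Ggt5 and Cotl1, beside 7.72% higher and 5.19% lower over all genes. In GFP+ cells 1 of 9 tested was lower at P6 than at P1, Mgst3 (log2 -2.38, adjusted p = 0.00417), and 1 was higher, Cotl1 (log2 1.94, adjusted p = 0.00273), beside 1.95% lower and 2.86% higher over all genes. In GFP- cells 2 of 14 were higher at P6, Dpep1 and Ggt5, and 0 were lower (1 at an unadjusted p under 0.05, 0 by DESeq2), beside 5.04% and 2.34% over all genes. In the interaction 1 of 14 passed by edgeR, Cotl1, at log2 1.59 (adjusted p = 0.00228), where 0.946% of all genes were higher. DESeq2 called 4 genes there, Cotl1 higher and 3 lower, Mgst3, Abcc1 and Abcc4, beside 1439 called over all genes. Abcc1 was at 21.2 and 28.6 CPM in P6 GFP+ and 24.5 and 25.4 CPM in P6 GFP- cells, a difference of log2 -0.01 (95% interval -0.49 to 0.47). Its interaction did not pass by edgeR (log2 -1.12, adjusted p = 0.0292), while DESeq2 called it lower.

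**Figure D4:**
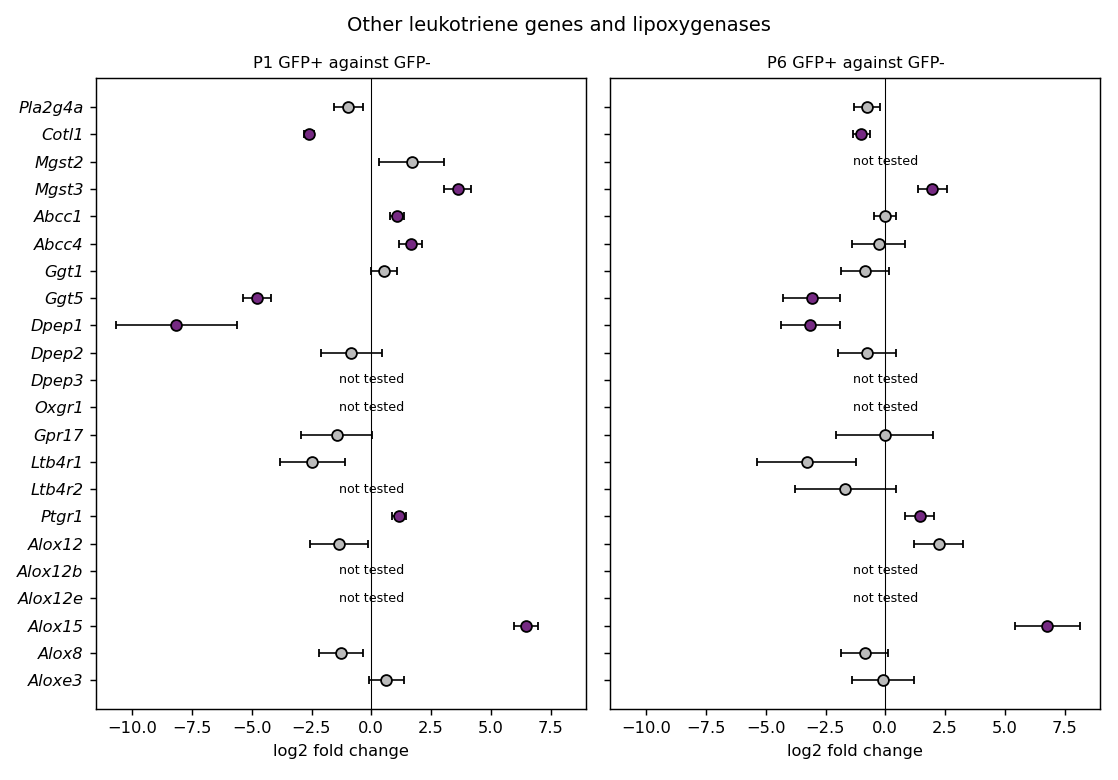
Log2 fold changes of GFP+ over GFP- cells with 95% intervals (edgeR) for 16 other leukotriene genes and 6 other lipoxygenases at P1 and P6, purple where p and adjusted p were below 0.01 and grey where not. Alox15 and Mgst3 are higher at both ages and Ggt5, Dpep1 and Cotl1 lower. Dpep1 at P1 is a fit to a group with no counts, so its fitted size is no measure.

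Of the 6 other lipoxygenases, Alox15, the mouse 12/15-lipoxygenase, was higher in GFP+ cells at both ages. It was at 27.5 and 33.4 CPM in P1 GFP+, 0.317 and 0.396 in P1 GFP-, 8.10 and 6.26 in P6 GFP+, and 0.0973 and 0.0295 CPM in P6 GFP- cells. The difference was log2 6.48 at P1 (SE 0.21, adjusted p = 1.19e-05) and 6.78 at P6 (SE 0.55, adjusted p = 0.00137), and in GFP+ cells Alox15 fell by P6 (log2 -1.99, adjusted p = 0.00669). Its interaction was log2 0.29 (adjusted p = 0.810), while that of Alox5 was -3.72.

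Alox12, the platelet-type lipoxygenase, moved the other way with age. In GFP+ cells it went from 0.415 and 0.201 CPM at P1 to 5.23 and 5.56 CPM at P6 (log2 4.13, SE 0.42, adjusted p = 0.00560 by edgeR). In GFP- cells it was at 0.686 and 1.11 CPM at P1 and at 1.51 and 0.783 CPM at P6. Its interaction of log2 3.57 did not pass by edgeR (adjusted p = 0.0209), while DESeq2 called it higher. Alox8 and Aloxe3 passed in no comparison, and Alox12b and Alox12e, at or below 0.106 CPM in every library, were not tested.

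**Figure D5:**
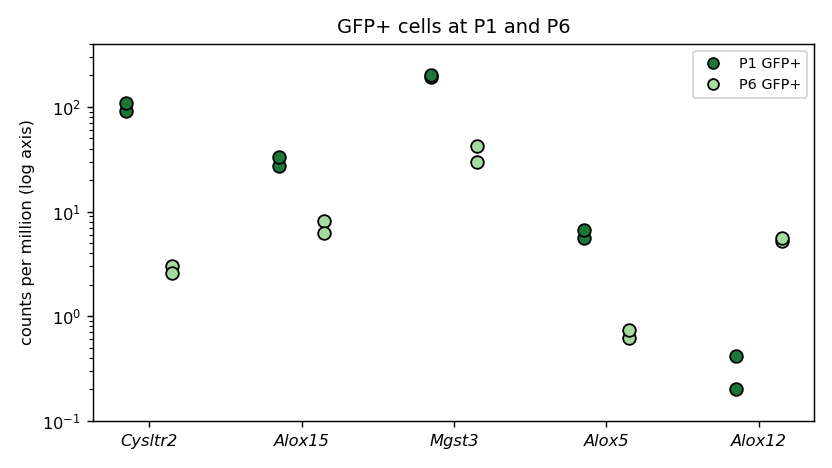
CPM (log axis) of Cysltr2, Alox15, Mgst3, Alox5 and Alox12 in the 2 P1 GFP+ libraries (dark green, left of each pair) and the 2 P6 GFP+ libraries (light green, right). The first 4 genes are lower at P6, with Cysltr2 from 91.1 and 109 to 3.04 and 2.61 CPM, and Alox12 is higher at P6.

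The prostanoid pathway, the cyclooxygenase branch of the same fatty acid, was measured beside it. At P1, 2 of 17 tested genes were higher in GFP+ cells and 7 lower (median log2 -0.97), where 16.6% of all genes were higher and 20.7% lower (median log2 0.01). At P6, 5 of 20 were lower (median log2 -1.57), where 5.19% of all genes were lower (median log2 -0.02). By edgeR 0 were higher at P6, beside 7.72% of all genes, with 3 at an unadjusted p under 0.05, and DESeq2 called 2 higher. In both directions, 8216 of all 18294 genes tested at P6 had an unadjusted p under 0.05, and DESeq2 called 4891. The 2 higher at P1 were receptors, Ptgir for prostacyclin (6.63 and 8.07 CPM against 1.24 and 1.74, log2 2.38, adjusted p = 0.000621) and Ptger1 for prostaglandin E2 (log2 1.16, adjusted p = 0.000727). The 4 lower genes with the largest change at P1 were the receptor Ptgfr, with 0 and 0.0803 CPM in GFP+ cells against 2.56 and 4.66, the synthases Hpgds (log2 -4.54) and Tbxas1 (log2 -3.37), and the receptor Ptger3 (log2 -3.17). At P6 the lower genes were Ptgfr, Tbxas1, Ptger4, Hpgd and Ptger2, the last with no counts in the GFP+ libraries.

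Ptgir shared part of the Alox5 pattern. It was at 1.58 and 2.11 CPM in P6 GFP+ and 3.05 and 2.88 CPM in P6 GFP- cells, and its interaction passed (log2 -3.08, SE 0.40, adjusted p = 0.00510 by edgeR). Of 20 prostanoid genes tested there, it alone passed by edgeR, beside 0.988% of all genes lower and 0.946% higher. DESeq2 called 4 prostanoid genes there, and 1439 over all genes. In GFP+ cells Ptges, a prostaglandin E synthase, was the 1 gene of 16 tested that passed between the ages by edgeR (log2 1.06, adjusted p = 0.00931). Over all genes, 2.86% were higher and 1.95% lower there. DESeq2 called 6 prostanoid genes between the ages in GFP+ cells, and 3037 over all genes. In GFP- cells 8 of 20 prostanoid genes were higher at P6 and 0 lower (0 also at an unadjusted p under 0.05 and by DESeq2), beside 5.04% and 2.34% over all genes, led by Ptgdr (log2 5.87), Ptgs2 (4.27), Ptgfr (2.81) and Hpgd (2.50).

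Of 11 genes that carry the Gq signal of the receptors, 2 were higher and 5 lower in GFP+ cells at P1, beside 16.6% higher and 20.7% lower over all genes. The G protein subunit Gna14 was at 29.4 and 31.0 CPM in GFP+ against 8.02 and 9.02 in GFP- cells (log2 1.93, adjusted p = 9.02e-05), and the calcium release channel Itpr2 was at 394 and 404 against 128 and 91.6 CPM (log2 1.97, adjusted p = 0.000265). The lower ones were Plcb2 (log2 -4.80), Gna15 (-3.42), Itpr3 (-1.80), Itpr1 (-1.18) and Gnaq (-0.48). At P6 1 of 11 passed by edgeR, Itpr2 (log2 2.36, adjusted p = 0.00159), where 7.72% of all genes were higher. DESeq2 called 5 of the 11 at P6, and 4891 over all 18294 genes tested. In GFP+ cells 0 of 11 passed between the ages by edgeR, beside 2.86% of all genes higher and 1.95% lower. Of the 11, 5 had an unadjusted p under 0.05 by edgeR and DESeq2 called 3. Over all 17213 genes tested there, 6575 had an unadjusted p under 0.05 and DESeq2 called 3037. In GFP- cells Gna14 (log2 1.78) and Itpr1 (0.96) were higher at P6, beside 5.04% of all genes.

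The genes most like each member were found by the Pearson r of log2 CPM over the 8 libraries, among 19232 other genes, as a description over points that share 4 groups. For Cysltr2 they were Chrng (r = 0.993), Ccnt2 (0.993) and Lat2 (0.990). Chrng, a subunit of the muscle acetylcholine receptor, was at 36.5 and 38.8 CPM in P1 GFP+, 0.581 and 1.20 in P1 GFP-, 3.38 and 2.68 in P6 GFP+, and 0.243 and 0.414 CPM in P6 GFP- cells. For Alox5 they were Nfatc1 (0.987), Anxa4 (0.986) and Ccdc30 (0.983), and Nfatc1 was at 63.9 and 61.9 CPM in P1 GFP+ and 23.5 to 34.7 CPM in the 6 other libraries.

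For Cysltr1 the nearest genes were Asap2 (r = 0.999), Myo1c (0.999) and Met (0.999). For Lta4h they were Wdr82 (0.998), Dnajc9 (0.994) and Pcna (0.991), for Ltc4s Peli1 (0.992), Mark3 (0.987) and Cdc34-ps (0.987), and for Alox5ap Zfp628 (0.982), Sp2 (0.960) and Zbtb1 (0.937). Between members over the same 8 libraries, r was 0.771 for Cysltr2 with Alox5, 0.894 for Cysltr1 with Ltc4s, -0.899 for Cysltr1 with Cysltr2, and -0.948 for Cysltr2 with Lta4h. Alox5 with Alox5ap, its partner protein, gave r = -0.162.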

How the data were processed

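RNA-seq counts came from 4 groups (GFP+ and GFP- cells of P1 and P6 cochleas), 2 libraries each, grouped by the ages and fractions in the labels. The authors deposited raw counts of reads per Ensembl gene, obtained after TopHat alignment to mm9 and counted with HTSeq per the submitters' notes, which name TopHat 1.4.0; the counting mode is not given in the sources used here. Going by the methods, an initial amplification was given to smaller cell inputs than those of the P1 and P6 libraries, for which none is described. Rows that name no gene, 23.8% to 35.3% of the listed counts, were left out.

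The libraries held 17769024 to 67695039 counts on genes, so low genes carry wide intervals, which cover counting error only (95% Poisson). Replicates differed by more than sampling noise (chi-square of 15.1 to 58.0 per degree of freedom). Each comparison was fitted on its 4 libraries with edgeR 4.0.16 (R 4.3.3): filterByExpr (minimum count 10, minimum total 15), TMM, quasi-likelihood test and Benjamini-Hochberg adjustment over all genes, calling p and adjusted p below 0.01. The interaction of age and fraction was fitted over all 8 libraries. The procedure was run on simulated data, with a single dispersion for all genes and changes placed only in genes with high counts. Of changes of log2 2, it recovered 86.9% in the interaction and 94.9% to 100% in the other comparisons. Genes with few counts, such as Cysltr1 and Ltc4s, lie outside that setting. A standard error is the log2 fold change over the square root of F. Likeness used log2 CPM with a prior count of 0.5.

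The members and gene lists were chosen with earlier results of these data known. Cysltr2, whose values chose them, was given no test in any comparison; a test at P6 and in GFP- cells between the ages had been planned and was dropped. All 6 members are named; of each list, called genes with the largest change are named, up to 4 per direction, and all where 5 or fewer were called. Genes named by DESeq2 calls alone were chosen after their values were seen. Alternatives were DESeq2 1.42.0, its size factors, library totals, no filter, all 8 libraries in a fit, a replicate block, leaving out each library and, chosen after seeing the data, a crossed block. Promoters were matched to NCBIM37 and plots drawn with Python 3.11.15 and matplotlib 3.10.9.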

Additional observations from a re-analysis of the deposited data

Results flagged for a closer look

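The change in the GFP+ to GFP- ratio of Alox5 between the ages was singled out because the effect of fraction differed between P1 and P6 in a test of the difference itself. The interaction was log2 -3.72 (SE 0.48, adjusted p = 0.00513 by edgeR over 8 libraries), from a ratio of log2 3.10 at P1 and log2 -0.61 at P6. Both P1 GFP+ libraries, at 5.59 and 6.71 CPM, were above the other 6, at 0.619 to 1.20 CPM. The call was lost in 6 of 13 alternatives, which were the replicate block (adjusted p = 0.0141 by edgeR) and leaving out either P1 GFP+ library, the second P1 GFP- library or either P6 GFP- library (adjusted p from 0.0204 to 0.0349).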

How the results depend on the processing

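The direction of every tested member besides Cysltr2 in P1 GFP+ against GFP-, P6 GFP+ against GFP- and GFP+ P6 against P1 stayed the same under all the alternatives run, and Alox5 and Cysltr1 kept their P1 calls. At P6, where edgeR called 0 members besides Cysltr2 and 2363 genes, DESeq2 size factors called 1 member, the DESeq2 test 2 members and 4891 genes, no filter on low counts 2 members and 5309 genes, and a fit of all 8 libraries 3 members and 5157 genes. In GFP+ cells between the ages, 828 genes became 3037 with the DESeq2 test, 4090 with no filter and 2361 with all 8 libraries. In GFP- cells, 1397 genes became 3050, 3993 and 769 in the same order. In the interaction, 372 genes became 1439 with the DESeq2 test and 2400 with no filter. The causes were not tested.

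Leaving out 1 library in turn, with a lone library assumed to vary like the other group, gave these ranges. The genes called ranged from 3675 to 9798 at P1 (6972 with all libraries), from 0 to 7767 at P6, from 137 to 7531 between the ages in GFP+ cells, from 249 to 3029 in GFP- cells and from 28 to 1407 in the interaction. The count of 0 came from edgeR without the second P6 GFP- library, where 5144 genes had an unadjusted p under 0.05; without the first it was 366, and without the first or second P6 GFP+ library 5654 or 7767. The lowest values between the ages came without the second P1 GFP+ library and the first P6 GFP- library. Members called besides Cysltr2 ranged from 0 to 2 at P6, from 0 to 1 in GFP+ cells between the ages and from 0 to 1 in the interaction. In GFP- cells between the ages, log2 ranged from -2.44 to 0.24 for Cysltr2 and from -0.55 to 0.16 for Alox5ap. In the interaction it ranged from -0.86 to 1.13 for Cysltr1 and from -0.32 to 0.44 for Alox5ap, so these 4 directions depend on single libraries. The fitted P1 value of Cysltr2 was 9.36 without the second P1 GFP- library.

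The replicate numbers come from the sample titles alone, and same-numbered libraries did not deviate together (r of the replicate differences between groups from -0.24 to 0.09), so no replicate block was used in the reported values. With a replicate block, the interaction called 151 genes and 0 members (Alox5 log2 -3.70, adjusted p = 0.0141), and 6363, 2837, 1079 and 1040 genes were called in the other 4 comparisons. A crossed replicate block in GFP- cells between the ages, chosen after seeing the data, called 3063 genes and 0 members. Depth limits Ltc4s and Cysltr1 in GFP+ cells, which at 3 to 21 counts a library were under the count filter and not tested between the ages.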
